A study of Mus musculus with 12 samples.

Results

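The B cell identity transcription factors Ebf1, Pax5, Pou2f2, Pou2af1 and Bcl11a were examined through the chromatin regions assigned to them. A region belonged to a gene when it overlapped that protein-coding gene, or, overlapping none, when that gene was the nearest. By this rule 239 of the 94161 listed regions belonged to the 5 genes, of which 87 fell to Ebf1, 33 to Pax5, 14 to Pou2f2, 10 to Pou2af1 and 95 to Bcl11a. None was shared with another gene.

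The study used ATAC-seq, an assay of open chromatin that relies on a transposase to cut accessible DNA and insert adapters there, on B cells sorted from the spleens of unstimulated female C57BL/6J mice. There were 4 groups of 3 libraries, each library made from 10000 cells: LSD1 knockout marginal zone B cells (MZB KO), wild-type marginal zone B cells (MZB WT), LSD1 knockout follicular B cells (FoB KO) and wild-type follicular B cells (FoB WT). All 12 libraries came from a B220+ gate that was negative for Thy1.1, F4/80, CD11b, CD93 and GL7. Marginal zone cells were then taken as CD23- CD21hi CD1d+ and follicular cells as CD23+ CD21mid CD1d-. LSD1, encoded by Kdm1a, is a histone demethylase that removes methyl groups from lysine 4 of histone H3. The labels do not say how or in which cells LSD1 was deleted, how old the mice were or how many animals stand behind a library. The p-values therefore measure the spread between libraries, which may be technical. In such pooled cells, a change in the share of cells with an open region and a change in its openness per cell cannot be told apart.

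Ebf1 and Pax5 act together to commit lymphoid progenitors to the B lineage and to keep B cell genes on: Ebf1 binds early and can open closed chromatin, and Pax5 activates B cell genes while silencing those of other lineages. Pou2f2, also called Oct2, binds the octamer element of immunoglobulin and other B cell promoters, and Pou2af1, also called OCA-B or Bob.1, is the coactivator it recruits there. Bcl11a is a zinc finger factor, mostly a repressor, needed for early B cell development and known in red cells for silencing fetal globin. The marginal zone and the follicle hold the main mature B cell types of the spleen, and marginal zone B cells depend on Notch2 signals.

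Accessibility is given in rppm, the reads in a region scaled so that all listed regions of a library sum to 1000000, as deposited. Whole reads recovered from these values came to between 3169966 (MZB KO replicate 2) and 10375328 (FoB WT replicate 2) per library. A region was tested when it had at least 1 rppm in at least 3 libraries, which left 89782 regions, 232 of them at the 5 genes: 83 for Ebf1, 32 for Pax5, 14 for Pou2f2, 10 for Pou2af1 and 93 for Bcl11a. The other 7 were removed for low values. A region was called higher or lower when limma's moderated test on log2(rppm + 0.5) gave an adjusted p under 0.05 over all 89782 regions, and every log2 difference below is on that scale. Genes that mark cell types served as a check. Regions of 7 marginal zone genes summed to between 1413 and 1492 rppm in the 6 MZB libraries. In the 6 FoB libraries they summed to between 1028 and 1101 rppm. Regions of 3 follicular genes summed to between 281 and 308 rppm in the MZB libraries and between 406 and 452 rppm in the FoB libraries. Of 7 T cell genes, 6 were among the annotated protein-coding genes, and a gene outside them could receive no region. Cd4, Cd8a, Trac and Bcl11b had no tested region. The 5 tested regions of the other 3 summed to 47.3 to 58.0 rppm in MZB KO and 45.3 to 51.6 rppm in MZB WT. They summed to 44.5 to 49.8 rppm in FoB KO and 38.3 to 45.1 rppm in FoB WT. Regions of 6 myeloid genes summed to 287 to 318 rppm in MZB KO, 270 to 282 rppm in MZB WT, 230 to 242 rppm in FoB KO and 232 to 237 rppm in FoB WT. Those of 4 dendritic cell genes summed to 407 to 427 rppm in MZB KO, 373 to 408 rppm in MZB WT, 323 to 334 rppm in FoB KO and 277 to 299 rppm in FoB WT. Those of 4 NK cell genes summed to 324 to 360 rppm in MZB KO, 299.6 to 308 rppm in MZB WT, 372 to 396 rppm in FoB KO and 343 to 384 rppm in FoB WT, and those of 2 erythroid and megakaryocyte genes to 31.2 to 38.0 rppm in MZB KO, 28.3 to 32.4 rppm in MZB WT, 40.6 to 44.0 rppm in FoB KO and 41.3 to 46.3 rppm in FoB WT. Those of 4 plasma cell genes summed to 706 to 736 rppm in MZB KO, 671 to 704 rppm in MZB WT, 731 to 784 rppm in FoB KO and 719.8 to 767 rppm in FoB WT. Myeloid and dendritic sums were thus higher in MZB than in FoB in both genotypes, and NK cell and erythroid sums were lower. Myeloid, NK cell and plasma cell sums were higher in MZB KO than in MZB WT. Dendritic sums were higher in FoB KO than in FoB WT. In each of these cases the libraries did not overlap. Single regions were also compared in MZB WT against FoB WT, where 24.2% of all tested regions were higher and 11.4% lower. Of 102 marginal zone regions, 51 were higher and 8 lower, the lower ones at Cd1d1, Cr2 and Plac8. Cr2 had only lower calls there. Of 30 follicular regions, 0 were higher and 15 lower. Of 17 NK cell regions, 5 were higher, at all 4 genes, and 5 lower, all at Klrb1c. Of 34 myeloid regions, 13 were higher and 3 lower, all 3 at Adgre1. Of 3 erythroid and megakaryocyte regions, 1 was lower, at Klf1. Of 45 dendritic cell regions, 23 were higher and 1 lower, and of 5 T cell regions 0 were called. In MZB KO against FoB KO, 23.2% of all tested regions were higher and 9.47% lower. There 3 of the 5 T cell regions were higher, at Cd3e and Thy1, and 0 lower. Dendritic cell regions had 19 higher and 0 lower, myeloid regions 14 and 1, and NK cell regions 4 and 4. The part of other cells in the results was not tested. The one tested region of Kdm1a had 18.9, 29.7 and 26.6 rppm in MZB KO and 24.0, 28.4 and 16.5 rppm in MZB WT, and it had 20.5, 20.6 and 20.6 rppm in FoB KO and 24.9, 21.2 and 22.2 rppm in FoB WT. The genotypes overlapped there in marginal zone cells, and the FoB KO libraries lay just below the FoB WT libraries. Neither difference was called (adjusted p = 0.773 in marginal zone and 0.866 in follicular cells), and a deletion elsewhere in the gene would not be seen in this region.

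The regions of the 5 genes lay in different places. Most regions of Pax5 and Pou2f2 lay within the gene, 27 of 33 and 12 of 14. Ebf1 had 54 regions within the gene, 5 upstream and 28 downstream, as far as 382145 bp from it. Bcl11a had 25 within the gene, 9 upstream and 61 downstream, as far as 1026527 bp, and a region so far away may serve another gene or none. The median accessibility per kilobase, a level averaged over the 12 libraries, was 19.2 rppm per kb for the 232 tested regions, beside 12.7 rppm per kb over all tested regions.

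Summed over its regions, accessibility at Ebf1 and Bcl11a was lower in marginal zone than in follicular B cells in both genotypes, while the sums at Pax5, Pou2f2 and Pou2af1 were closer together. The Ebf1 regions summed to 592, 679 and 641 rppm in MZB KO and to 669, 669 and 615 rppm in MZB WT. The same regions summed to 864, 863 and 794 rppm in FoB KO and to 874, 902 and 913 rppm in FoB WT. The 6 MZB libraries all lay below the 6 FoB libraries, and the MZB mean was 0.759 of the FoB mean in knockouts and 0.727 of it in wild types. Within the follicular cells the 3 KO libraries lay below the 3 WT libraries, with means of 840 ± 40.2 rppm in FoB KO and 896 ± 20.2 rppm in FoB WT (SD, n = 3 each), a ratio of 0.937. Within the marginal zone cells the genotypes overlapped.

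The Bcl11a regions summed to 954, 924 and 916 rppm in MZB KO and 904, 931 and 918 rppm in MZB WT, against 1270, 1228 and 1180 rppm in FoB KO and 1150, 1227 and 1203 rppm in FoB WT. Again no MZB library reached the lowest FoB library, at ratios of 0.760 in knockouts and 0.769 in wild types, and the genotypes overlapped within each cell type. Pax5 averaged 349 ± 28.5 rppm in MZB KO, 342 ± 12.3 rppm in MZB WT, 358 ± 8.74 rppm in FoB KO and 381 ± 6.36 rppm in FoB WT (SD, n = 3 each). The 3 FoB WT libraries, at 377 to 389 rppm, lay above the 3 FoB KO libraries, at 352 to 368 rppm. The MZB WT libraries, at 330.3 to 355 rppm, lay below the FoB WT libraries, a ratio of 0.897, while MZB KO and FoB KO overlapped. Pou2f2 averaged 172 ± 15.6 rppm in MZB KO, 164 ± 2.87 rppm in MZB WT, 181 ± 6.14 rppm in FoB KO and 185 ± 19.2 rppm in FoB WT, and neighbouring groups in the order of levels overlapped. The MZB WT libraries, at 161 to 167 rppm, lay below the FoB WT libraries, at 169 to 206 rppm, a ratio of 0.886, while MZB KO and FoB KO overlapped. Pou2af1 was nearly level at 136 ± 1.21 rppm in MZB KO, 134 ± 8.93 rppm in MZB WT, 136 ± 7.33 rppm in FoB KO and 131 ± 5.93 rppm in FoB WT, with all neighbouring groups overlapping. These sums are descriptions and carry no test. The share of all genes whose sums separate the groups likewise is not given here.

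**Figure D1:**
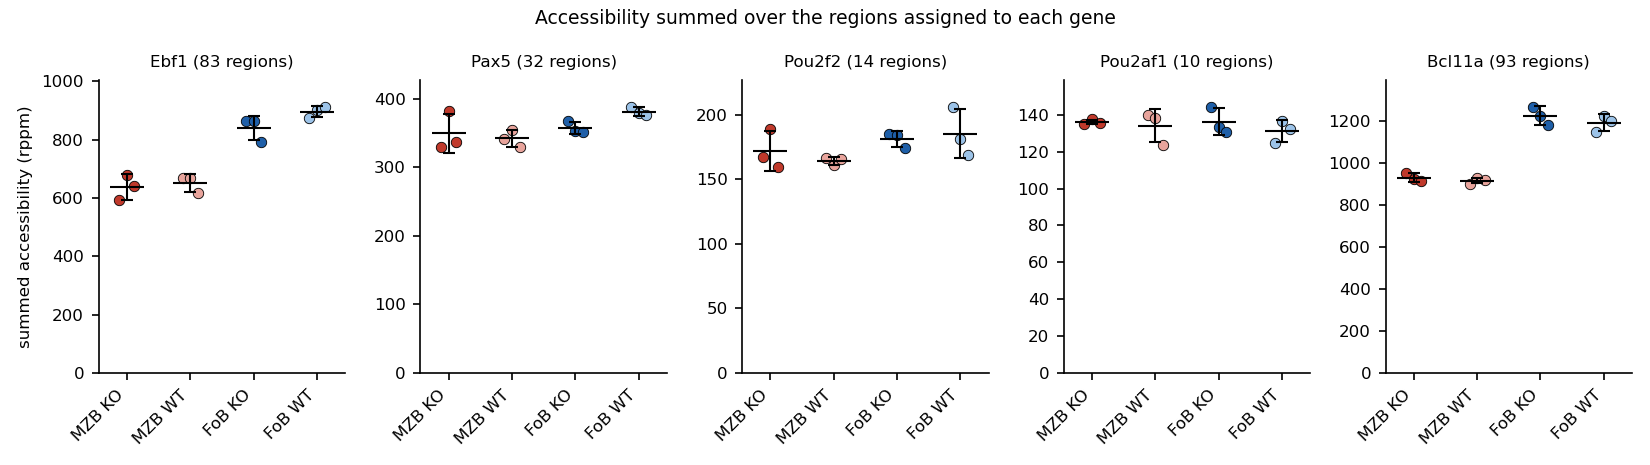
Accessibility summed over the tested regions of each gene (rppm, linear axis from 0) in MZB KO, MZB WT, FoB KO and FoB WT. Points are libraries, horizontal bars are group means and error bars are 1 SD (n = 3 each); the MZB libraries lie below all FoB libraries for Ebf1 (592 to 679 against 794 to 913 rppm) and for Bcl11a, and the groups overlap for Pou2af1.

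Region by region, limma called 1 region of these genes between knockout and wild type in marginal zone cells and 0 in follicular cells. In MZB KO against MZB WT, 1 of 232 regions was higher and 0 were lower, beside 0.777% of all tested regions called in either direction. An unadjusted p under 0.05 was reached by 29 of the 232, and edgeR and DESeq2 on the recovered reads called 0. In FoB KO against FoB WT, 0 were called, beside 0.539% of all tested regions, with 22 at an unadjusted p under 0.05. There edgeR called 1 lower and DESeq2 called 0. The median log2 difference was -0.02 in marginal zone cells, equal to that of all tested regions, and -0.04 in follicular cells beside -0.02 for all.

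The libraries of the genotypes did not overlap at 41 of the 232 regions in marginal zone cells, 16 higher and 25 lower in MZB KO, where 17.7% of all tested regions were so separated. In follicular cells 37 regions were so separated, 14 higher and 23 lower in FoB KO, against 14.7% of all tested regions. These counts are near the background. The data bound the differences more tightly at some regions than at others: the 95% interval of the log2 difference stayed within 1 in either direction at 181 of 232 regions in marginal zone cells and at 191 in follicular cells. For the remaining regions a change of 2-fold was within the interval.

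The region called in marginal zone cells lies within Bcl11a (chr11:24144882-24145176, mm10 as deposited). It had 13.5, 16.1 and 13.0 rppm in MZB KO and 8.10, 9.57 and 8.40 rppm in MZB WT, against 13.2, 11.7 and 11.4 rppm in FoB KO and 9.31, 11.6 and 12.2 rppm in FoB WT. All 3 MZB KO libraries exceeded the MZB WT libraries, while the follicular genotypes overlapped. The log2 difference between MZB KO and MZB WT was 0.68 ± 0.17 (SE, adjusted p = 0.0387). The call was lost in 11 of 22 alternatives, among them edgeR, DESeq2 and the omission of any 1 MZB library or of FoB WT replicate 2, and adjusted p spanned 0.0148 to 0.291.

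At the other 4 genes the region with the smallest p in each knockout comparison missed the threshold. For Ebf1 in marginal zone cells this was chr11:44707519-44708073, inside the gene, with 7.0, 7.57 and 7.68 rppm in MZB KO and 14.6, 10.6 and 10.3 rppm in MZB WT. The libraries did not overlap, and the log2 difference was -0.62 ± 0.17 (adjusted p = 0.0702). Under quantile normalisation it passed, at an adjusted p of 0.0288. For Ebf1 in follicular cells it was chr11:44768533-44768724, also inside the gene, with 1.03, 2.68 and 1.78 rppm in FoB KO and 4.93, 3.47 and 3.58 rppm in FoB WT, a log2 difference of -0.99 ± 0.28 (adjusted p = 0.118).

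For Pax5 the smallest p in follicular cells fell on chr4:44558203-44558759, toward the 3′ end of the gene, with 4.97, 3.91 and 2.80 rppm in FoB KO and 5.75, 6.55 and 7.64 rppm in FoB WT. The FoB KO libraries all lay lower, by a log2 difference of -0.72 ± 0.21 (adjusted p = 0.126). In marginal zone cells it fell on chr4:44667362-44667893, with 32.9, 46.1 and 36.9 rppm in MZB KO and 33.7, 22.9 and 30.2 rppm in MZB WT, where the libraries overlapped (log2 difference 0.42 ± 0.13, adjusted p = 0.110). Both Pou2f2 regions so chosen had an adjusted p above 0.25, at 0.255 in marginal zone cells and 0.643 in follicular cells, and both Pou2af1 regions above 0.29, at 0.296 and 0.561.

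The Bcl11a region with the smallest p in follicular cells, chr11:24089105-24089239 within the gene, was weakly accessible. It had 1.45, 1.65 and 1.78 rppm in FoB KO and 3.56, 3.66 and 6.21 rppm in FoB WT, with no overlap. Its log2 difference of -1.19 ± 0.34 had an adjusted p of 0.124 by limma and 0.0444 by edgeR with TMM.

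**Figure D2:**
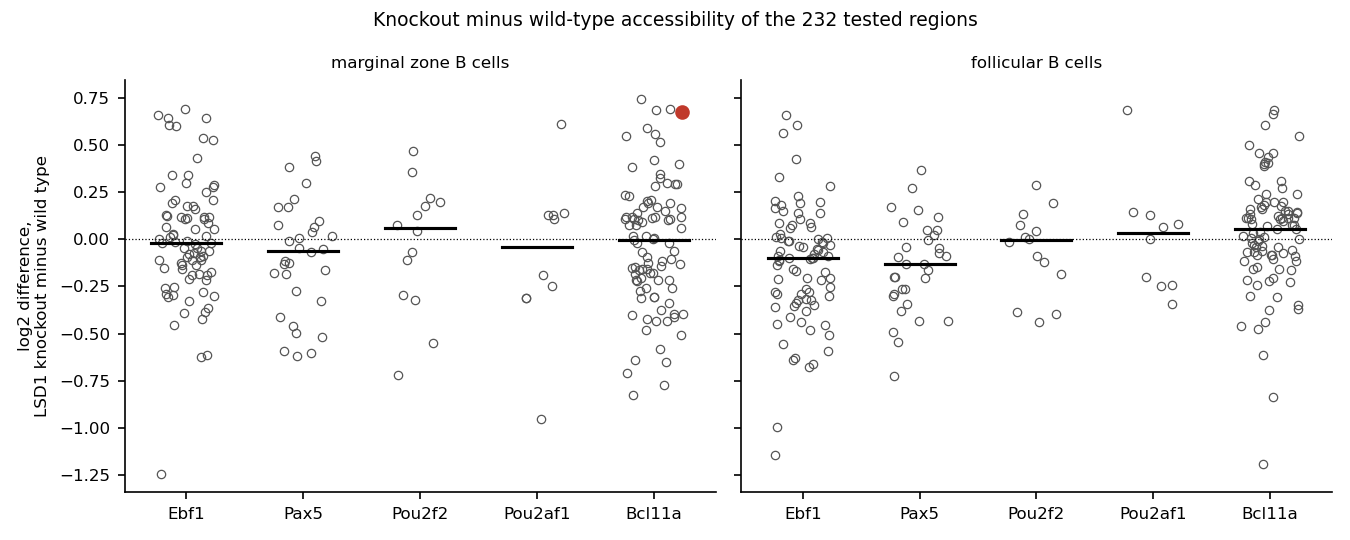
Log2 difference of LSD1 knockout minus wild type for each of the 232 tested regions, by gene, in marginal zone B cells (left) and follicular B cells (right). Open circles are regions with an adjusted p of 0.05 or more, the red point is the 1 Bcl11a region called in marginal zone cells, black bars are medians, and sideways spread within a gene has no meaning.

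The start sites were looked at next. Sequence upstream of the start is shown for the 3 genes whose first start site lies at the outer edge of the gene, because the start regions described next contain or flank it. These are the 250 bases before the RefSeq start (RefSeq, GRCm38.p6), 5′ to 3′ on the gene's strand, with CpG dinucleotides in capitals.
Ebf1, chr11:44617850-44618099, plus strand: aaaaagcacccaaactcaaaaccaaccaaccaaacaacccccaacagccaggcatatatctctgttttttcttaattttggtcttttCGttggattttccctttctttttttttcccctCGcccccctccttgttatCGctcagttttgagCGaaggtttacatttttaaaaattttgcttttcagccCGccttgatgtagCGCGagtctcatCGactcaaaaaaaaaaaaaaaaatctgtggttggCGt
Pax5, chr4:44710695-44710944, minus strand: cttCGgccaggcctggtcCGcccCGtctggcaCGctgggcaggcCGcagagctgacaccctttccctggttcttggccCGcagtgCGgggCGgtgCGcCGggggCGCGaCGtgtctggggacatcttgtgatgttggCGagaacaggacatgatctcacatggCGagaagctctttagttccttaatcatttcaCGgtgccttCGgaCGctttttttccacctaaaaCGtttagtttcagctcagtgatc
Pou2af1, chr9:51213440-51213689, plus strand: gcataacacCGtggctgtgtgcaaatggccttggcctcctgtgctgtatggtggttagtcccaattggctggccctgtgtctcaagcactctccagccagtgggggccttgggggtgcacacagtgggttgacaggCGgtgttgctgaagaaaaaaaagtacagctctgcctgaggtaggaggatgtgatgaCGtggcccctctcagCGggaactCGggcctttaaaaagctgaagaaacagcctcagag
The Pax5 window held 19 CpGs and 58.8% G and C, the Pou2af1 window 5 CpGs and 56% G and C, and the Ebf1 window 9 CpGs and 40% G and C, where the median of all RefSeq windows was 52.4%. The listed regions at the Pax5 and Pou2af1 starts overlap these windows, whereas the Ebf1 window overlaps none and the nearest region begins 190 bp beyond that start. The octamer ATGCAAAT, read on both strands, is in none of the windows of the 5 genes, beside 1.6% of 32851 RefSeq windows. Neither is the Ebf1 palindrome, TCCC and GGGA with any 2 bases between them, beside 0.779%, nor the E protein motif CAGGTG, beside 17.2%.

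The Pou2af1 start region, chr9:51212995-51214064, was the most accessible of all 239 regions, averaging 77 rppm. It had 79.3, 75.4 and 76.8 rppm in MZB KO, 69.4, 76.8 and 65.6 rppm in MZB WT, 90.4, 80.3 and 75.2 rppm in FoB KO, and 81.0, 81.4 and 72.6 rppm in FoB WT. All 4 groups overlapped, and no comparison was called. Its knockout difference was bounded between -0.05 and 0.31 (log2, 95% interval) in marginal zone cells and between -0.12 and 0.24 in follicular cells. The Pax5 start region, chr4:44710660-44711098, had 25.0, 21.1 and 26.0 rppm in MZB KO, 18.6, 21.8 and 23.6 rppm in MZB WT, 25.7, 28.4 and 21.6 rppm in FoB KO, and 23.5, 25.1 and 24.1 rppm in FoB WT. It too was called in no comparison, with a knockout difference between -0.10 and 0.43 in marginal zone cells and between -0.22 and 0.31 in follicular cells.

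The start regions of Ebf1 and Bcl11a were lower in marginal zone cells. At Ebf1, chr11:44618290-44618553 had 5.60, 7.26 and 6.5 rppm in MZB KO against 10.6, 12.2 and 12.7 rppm in FoB KO, and 8.64, 8.24 and 5.29 rppm in MZB WT against 14.2, 11.8 and 11.2 rppm in FoB WT. The cell types did not overlap in either genotype, and the log2 difference of MZB minus FoB was -0.83 ± 0.19 in knockouts (adjusted p = 0.000944) and -0.73 ± 0.19 in wild types (adjusted p = 0.00281).

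A further Ebf1 start lies downstream of that one, and the region beside it, chr11:44619850-44620105, had 8.16, 8.83 and 8.27 rppm in MZB KO, 8.91, 7.44 and 8.71 rppm in MZB WT, 6.42, 9.27 and 7.88 rppm in FoB KO, and 10.4, 11.7 and 14.1 rppm in FoB WT. Only FoB WT stood apart from the other groups. MZB WT was lower than FoB WT by a log2 difference of -0.50 ± 0.19 (adjusted p = 0.0338), a call lost in 4 of 22 alternatives, the omission of MZB WT replicate 2 or 3 or of FoB WT replicate 2 or 3, at adjusted p values up to 0.185. MZB KO minus FoB KO was 0.11 ± 0.19 and FoB KO minus FoB WT was -0.59 ± 0.19 (adjusted p = 0.185).

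At Bcl11a the region 310 bp beyond the annotated start, chr11:24081005-24081357, had 24.0, 18.6 and 23.3 rppm in MZB KO against 34.1, 33.2 and 32.8 rppm in FoB KO, and 18.6, 21.0 and 22.1 rppm in MZB WT against 35.0, 33.2 and 33.2 rppm in FoB WT. No library of one cell type reached the other, with log2 differences of -0.60 ± 0.12 in knockouts (adjusted p = 0.000182) and -0.71 ± 0.12 in wild types (adjusted p = 1.62e-05). The Pou2f2 start region, chr7:25132400-25132761, differed less clearly. It had 10.3, 13.6 and 10.9 rppm in MZB KO, 10.8, 7.71 and 8.40 rppm in MZB WT, 17.6, 13.6 and 16.8 rppm in FoB KO, and 18.1, 15.1 and 7.88 rppm in FoB WT. FoB WT replicate 3 lay among the MZB WT libraries. MZB WT was lower than FoB WT with an adjusted p of 0.0430, a call lost in 6 of 22 alternatives, among them the omission of MZB WT replicate 2 or 3 or of FoB WT replicate 1 or 2, at adjusted p values up to 0.327. In knockouts MZB KO minus FoB KO was -0.45 ± 0.20 (adjusted p = 0.0879).

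Between the cell types, lower calls outnumbered higher ones at these genes, whereas over all regions the higher calls were the more numerous. In MZB KO against FoB KO, 14 of 232 regions (6.03%) were higher and 64 (27.6%) were lower, beside 23.2% higher and 9.47% lower of all tested regions. In MZB WT against FoB WT, 12 (5.17%) were higher and 69 (29.7%) were lower, beside 24.2% and 11.4%. The median log2 difference was -0.19 in knockouts and -0.21 in wild types at the 5 genes, and 0.14 and 0.18 over all tested regions.

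The split over all regions depends on scaling. Of all calls in the knockouts, 71.0% were higher with the deposited scaling and 53.0% after quantile normalisation, and in the wild types 67.9% and 49.5%. Quantile normalisation moved the median of all regions to -0.08 in both genotypes. It gave 6 higher and 84 lower regions at the 5 genes in knockouts, and 9 higher and 103 lower in wild types. With edgeR and TMM the counts were 9 higher and 88 lower in knockouts, where 18.4% of all regions were higher and 16.4% lower, and 10 higher and 96 lower in wild types, where 20.2% were higher and 19.0% lower.

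The level of a region moved with the direction of its call. Over all tested regions the median level was 24.7 rppm for those lower in MZB WT and 4.11 rppm for those higher. The median of the 232 regions was 6.00 rppm, beside 4.21 rppm for all. At 20 rppm or more, 1 of 36 regions of the 5 genes was higher in MZB WT and 24 (66.7%) were lower, where 10.2% of all regions of that level were higher and 41.7% lower. Between 5 and 20 rppm, 5 of 97 were higher and 28 (28.9%) lower, where 29.6% and 11.7% of all were. Under 5 rppm, 6 of 99 were higher and 17 (17.2%) lower, where 25.4% and 2.58% of all were. The lower share was the larger at the 5 genes in each range of level. The ranges were set after the values were seen and carry no test.

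The comparisons of cell types in knockouts and in wild types share no library. They do share the estimate of spread of each region, so their calls are not independent. The like overlap over all tested regions is not given here. Of the 69 regions lower in MZB WT, 47 were also lower in MZB KO, which is 73.4% of the knockout list and 68.1% of the wild-type list, and 67 had the same sign there. Of the 12 higher in MZB WT, 7 were also higher in MZB KO, 50% of the knockout list and 58.3% of the wild-type list, and all 12 had the same sign. The test of the difference between the knockout effects in marginal zone and follicular cells called 0 of the 232 regions, beside 0.00111% of all tested regions. An unadjusted p under 0.05 was reached by 12, the smallest adjusted p was 0.625, and edgeR and DESeq2 also called 0.

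**Figure D3:**
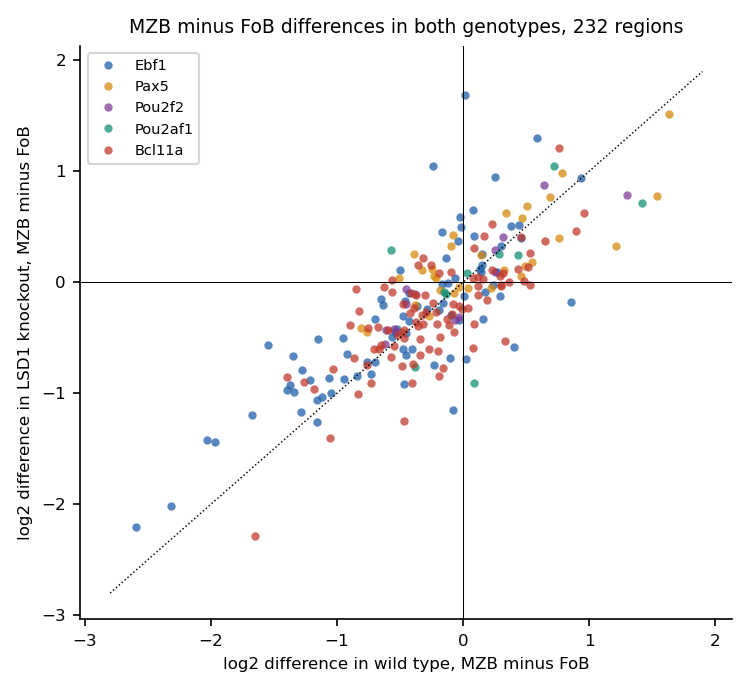
Log2 difference of MZB minus FoB in LSD1 knockouts (vertical axis) against that in wild types (horizontal axis) for the 232 tested regions, coloured by gene. The dotted line marks equal differences; most Ebf1 and Bcl11a points far from 0 lie in the lower left, where both genotypes were lower in MZB.

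At Ebf1 the contrast between the cell types differed between segments of the locus: it was small in the 5′ and middle parts of the gene and larger upstream of the gene, in its 3′ part and downstream of it. Of its 83 tested regions, 5 (6.02%) were higher and 29 (34.9%) lower in MZB KO than in FoB KO, beside 23.2% and 9.47% of all tested regions. In MZB WT against FoB WT, 1 (1.20%) was higher and 34 (41.0%) lower, beside 24.2% and 11.4%. Downstream of the gene, 15 of 25 regions were lower and 0 higher in MZB KO, and 18 of 25 were lower and 0 higher in MZB WT, with median log2 differences of -0.86 and -1.15. When the gene body is split into 3 equal parts along transcription, 2 regions were higher and 2 lower of 25 in the 5′ part in knockouts, and 1 was higher and 2 lower in wild types. The middle part had 3 higher and 3 lower of 14 in knockouts, and 0 higher and 1 lower in wild types. The 3′ part had 0 higher in either genotype, 7 of 14 lower in knockouts and 9 of 14 lower in wild types, with median differences of -0.62 and -0.77. Upstream of the gene, 2 of 5 regions were lower in knockouts and 4 of 5 in wild types, with 0 higher in either and median differences of -0.46 and -0.54. The split of the gene body into parts, used below for Pax5 and Pou2f2 as well, was not planned in advance and carries no test.

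The summed accessibility of these segments differed in the same way. The upstream regions had 73.9, 82.3 and 73.3 rppm in MZB KO against 109.9, 110.2 and 107.5 rppm in FoB KO, and 78.5, 76.6 and 69.3 rppm in MZB WT against 107.05, 105.4 and 113.7 rppm in FoB WT. The 5′ part had 200, 238 and 243 rppm in MZB KO against 237, 223 and 204 rppm in FoB KO, and 257, 253 and 229 rppm in MZB WT against 243, 243 and 244 rppm in FoB WT, with overlap in both genotypes. The 3′ part had 97.5, 113 and 109 rppm in MZB KO against 170, 181 and 164 rppm in FoB KO, and 108, 109 and 99.5 rppm in MZB WT against 170, 176 and 177 rppm in FoB WT. The downstream regions had 111, 128 and 107 rppm in MZB KO against 216, 228 and 208 rppm in FoB KO, and 110, 112 and 101.4 rppm in MZB WT against 229, 248 and 247 rppm in FoB WT. Upstream, in the 3′ part and downstream, no MZB library reached a FoB library. The middle part had 109.6, 117.7 and 108.8 rppm in MZB KO against 130.4, 121.3 and 110.05 rppm in FoB KO, with overlap. In wild types it had 116.3, 118.3 and 116.3 rppm in MZB WT against 124.8, 129.1 and 131.8 rppm in FoB WT, without overlap. The MZB to FoB ratio was 0.701 in knockouts and 0.688 in wild types upstream, 1.03 and 1.01 in the 5′ part, 0.929 and 0.910 in the middle part, 0.620 and 0.602 in the 3′ part, and 0.531 and 0.447 downstream.

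The Ebf1 region with the smallest p in both genotypes lies 108504 bp downstream of the gene (chr11:45116600-45117294). It had 13.5, 14.2 and 14.8 rppm in MZB KO against 40.4, 39.96 and 36.3 rppm in FoB KO, and 11.3, 13.0 and 11.2 rppm in MZB WT against 49.6, 49.5 and 50.4 rppm in FoB WT. Libraries of a cell type lay close together and far from the other type. The log2 difference was -1.42 ± 0.12 in knockouts (adjusted p = 1.21e-11) and -2.03 ± 0.12 in wild types (adjusted p = 1.65e-15). The knockout effect differed between the cell types by 0.61 ± 0.17 at an unadjusted p of 0.00108, which did not pass adjustment over all regions (adjusted p = 0.625). All 3 MZB KO libraries lay above the MZB WT libraries and all 3 FoB KO libraries below the FoB WT libraries.

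The most accessible Ebf1 region, chr11:44764313-44765502 inside the gene, differed little. It had 59.5, 62.5 and 60.9 rppm in MZB KO against 77.6, 72.5 and 68.1 rppm in FoB KO, and 62.9, 65.4 and 64.4 rppm in MZB WT against 70.4, 72.5 and 77.4 rppm in FoB WT. The log2 difference was -0.25 ± 0.09 in knockouts (adjusted p = 0.0214) and -0.19 ± 0.09 in wild types (adjusted p = 0.0805). The knockout call was lost in 4 of 22 alternatives, quantile normalisation and the omission of MZB KO replicate 1 or of FoB KO replicate 1 or 2, at adjusted p values up to 0.910. One Ebf1 region was higher in marginal zone cells in both genotypes, chr11:44663517-44664024 in the 5′ part of the gene. It had 17.5, 13.9 and 16.6 rppm in MZB KO against 8.07, 9.68 and 6.61 rppm in FoB KO, and 19.4, 16.5 and 15.2 rppm in MZB WT against 7.67, 8.39 and 10.0 rppm in FoB WT. The log2 differences of 0.94 ± 0.17 and 0.93 ± 0.17 had adjusted p values of 4.5e-05 and 4.62e-05.

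**Figure D4:**
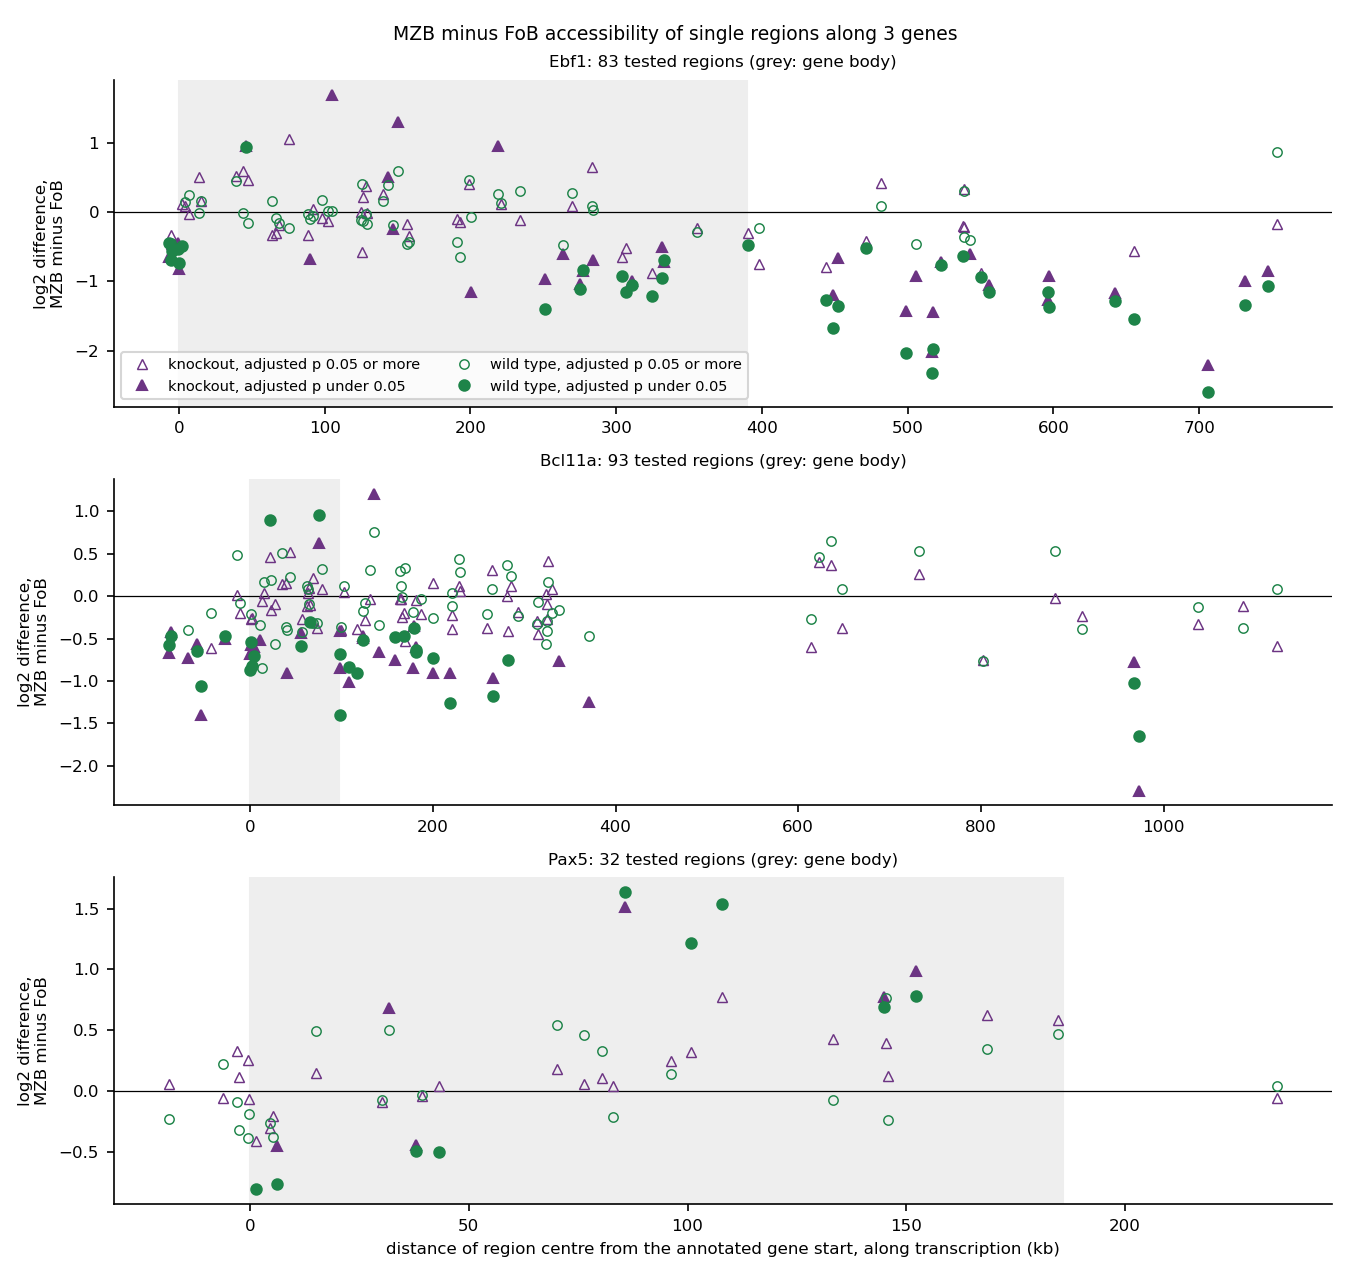
Log2 difference of MZB minus FoB for each tested region of Ebf1, Bcl11a and Pax5 against the distance of its centre from the annotated gene start along transcription (kb), with the gene body in grey. The gene start is here the 5′ edge of the gene, which for Bcl11a is not the RefSeq start site used in the text. Triangles are LSD1 knockouts, circles wild types, and filled symbols have an adjusted p under 0.05; at Ebf1 all filled symbols downstream of the gene and in its 3′ part are below 0, and at Pax5 those below 0 lie in the 5′ part.

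Bcl11a had 2 regions (2.15%) higher and 29 (31.2%) lower of 93 in MZB KO against FoB KO, beside 23.2% and 9.47% of all tested regions. It had 2 (2.15%) higher and 27 (29.0%) lower in MZB WT against FoB WT, beside 24.2% and 11.4%. Its median log2 difference was -0.27 in each. The lower regions lay upstream of, within and downstream of the gene. Upstream, 6 of 9 were lower in knockouts and 5 of 9 in wild types. Within the gene, 6 of 25 were lower in each genotype, and downstream 17 and 16 of 59.

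The most accessible Bcl11a region lies 81462 bp downstream (chr11:24255020-24255897). It had 43.1, 47.0 and 50.5 rppm in MZB KO against 64.2, 61.4 and 54.9 rppm in FoB KO, and 45.3, 49.2 and 44.2 rppm in MZB WT against 59.1, 61.6 and 59.5 rppm in FoB WT. The cell types did not overlap, with log2 differences of -0.36 ± 0.10 and -0.38 ± 0.10 (adjusted p = 0.00371 and 0.00205). Both calls were lost under quantile normalisation, at adjusted p values of 0.229 and 0.224.

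A nearer downstream region, chr11:24184762-24185720, was the Bcl11a region with the smallest p among those lower in MZB KO. It had 35.7, 32.2 and 36.6 rppm in MZB KO against 66.2, 72.9 and 72.2 rppm in FoB KO, and 31.8, 33.2 and 39.8 rppm in MZB WT against 58.0, 65.3 and 64.5 rppm in FoB WT, log2 differences of -1.01 ± 0.10 and -0.84 ± 0.10 (adjusted p = 7.32e-10 and 3.37e-08). The MZB libraries were clear of the FoB libraries in both genotypes. The region with the smallest p in wild types, chr11:25043442-25044823, lies 869884 bp from the gene and had 25.0, 21.8 and 25.4 rppm in MZB KO against 44.9, 39.3 and 40.4 rppm in FoB KO, and 16.5, 18.9 and 19.6 rppm in MZB WT against 33.4, 41.3 and 38.9 rppm in FoB WT. It was lower by -0.78 ± 0.12 in knockouts and -1.03 ± 0.12 in wild types (adjusted p = 3.16e-06 and 1.43e-08), and Bcl11a is merely its nearest protein-coding gene.

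The regions of Bcl11a higher in marginal zone cells averaged 3.07 to 6.28 rppm over the 12 libraries. The median of all tested regions was 4.21 rppm, and that of the Bcl11a regions lower in MZB WT was 20.6 rppm. Within the gene, chr11:24152211-24152502 had 7.46, 6.62 and 5.91 rppm in MZB KO against 3.52, 3.91 and 5.08 rppm in FoB KO (adjusted p = 0.0308), and 9.45, 12 and 7.46 rppm in MZB WT against 5.48, 4.43 and 4.06 rppm in FoB WT (log2 difference 0.96 ± 0.23, adjusted p = 0.00097). The call in knockouts was lost in 7 of 22 alternatives, among them the omission of MZB KO replicate 1 or 2 or of FoB KO replicate 1 or 2, at adjusted p values up to 0.117 for these omissions. Downstream, chr11:24211687-24211989 had 5.13, 4.10 and 4.73 rppm in MZB KO against 2.69, 1.44 and 1.27 rppm in FoB KO (log2 difference 1.21 ± 0.31, adjusted p = 0.00256), a call that quantile normalisation ended at an adjusted p of 0.0741.

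Pax5 had calls in both directions, which lay in different parts of the gene in wild types. In MZB KO against FoB KO, 4 of 32 regions (12.5%) were higher and 2 (6.25%) lower, beside 23.2% and 9.47% of all tested regions. In MZB WT against FoB WT 5 (15.6%) were higher and 4 (12.5%) lower, beside 24.2% and 11.4%. The lower share of Pax5 was thus near that of all regions in wild types and not above it in knockouts. All 4 regions lower in wild types lay in the 5′ part of the gene body, and all 5 higher ones in its middle and 3′ parts. In knockouts both lower regions and 1 of the 4 higher ones lay in the 5′ part. The regions lower in wild types had a median level of 35.4 rppm, and the higher ones 3.83 rppm. The sum over the 5′ part was 234, 260 and 236 rppm in MZB KO against 277, 271 and 276 rppm in FoB KO, and 225, 235 and 222 rppm in MZB WT against 297, 285 and 278 rppm in FoB WT. That over the 3′ part was 29.2, 34.7 and 30.4 rppm in MZB KO against 21.5, 18.7 and 19.1 rppm in FoB KO, and 38.9, 37.5 and 37.6 rppm in MZB WT against 26.0, 26.2 and 31.8 rppm in FoB WT. Both sums separated the cell types in both genotypes, in opposite directions.

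The lower region with the smallest p, chr4:44704409-44704825, lies 5869 bp into the gene. It had 29.9, 31.9 and 31.9 rppm in MZB KO against 40.4, 43.5 and 44.7 rppm in FoB KO, and 23.8, 30.0 and 27.1 rppm in MZB WT against 47.9, 43.6 and 46.1 rppm in FoB WT. The log2 difference was -0.45 ± 0.11 in knockouts (adjusted p = 0.00133) and -0.76 ± 0.11 in wild types (adjusted p = 7.22e-07). The region chr4:44667362-44667893, described above for its knockout values, was lower in wild types by -0.50 ± 0.13 (adjusted p = 0.00162). It was not called in knockouts, at 0.04 ± 0.13 (adjusted p = 0.835), and the difference of the knockout effects was 0.55 ± 0.18 with an adjusted p of 0.700.

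The higher region with the smallest p, chr4:44624799-44625180 in the middle of the gene, had 4.90, 7.89 and 4.43 rppm in MZB KO against 2.28, 1.44 and 1.27 rppm in FoB KO, and 6.75, 7.71 and 4.35 rppm in MZB WT against 1.64, 1.83 and 1.43 rppm in FoB WT. It was higher in every MZB library, by 1.52 ± 0.30 in knockouts and 1.63 ± 0.30 in wild types (adjusted p = 0.000129 and 4.17e-05). The 3′ region chr4:44558203-44558759 had 7.70, 7.57 and 8.87 rppm in MZB KO and 11.9, 12.5 and 10.9 rppm in MZB WT, above the follicular values given earlier, by 0.99 ± 0.21 and 0.78 ± 0.21 (adjusted p = 0.000327 and 0.00324). DESeq2 gave the wild-type difference an adjusted p of 0.0520. The most accessible Pax5 region, chr4:44671058-44671881, averaged 43.4 rppm and was called in no comparison, with a log2 difference between the cell types of -0.04 ± 0.11 in knockouts and -0.03 ± 0.11 in wild types.

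Pou2f2 had calls of both signs, in different parts of the gene. Of its 14 regions, 2 (14.3%) were higher and 2 (14.3%) lower in MZB KO against FoB KO, beside 23.2% and 9.47% of all tested regions. In MZB WT against FoB WT, 2 (14.3%) were higher and 4 (28.6%) lower, beside 24.2% and 11.4%. All lower regions of Pou2f2 lay in the middle part of the gene body, where the annotated start site also lies, and both higher ones in the 3′ part. Its most accessible region, chr7:25129461-25130153, had 33.6, 33.8 and 29.6 rppm in MZB KO against 43.9, 44.9 and 41.9 rppm in FoB KO, and 26.4, 25.5 and 32.7 rppm in MZB WT against 49.6, 39.9 and 40.6 rppm in FoB WT. The MZB libraries were lower throughout, by -0.43 ± 0.11 in knockouts and -0.61 ± 0.11 in wild types (adjusted p = 0.00351 and 5.51e-05), and quantile normalisation took the knockout call to an adjusted p of 0.0526.

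The higher region chr7:25106686-25107052 had 6.30, 10.4 and 5.62 rppm in MZB KO against 4.35, 3.71 and 3.81 rppm in FoB KO, and 8.64, 11.2 and 7.77 rppm in MZB WT against 3.01, 5.30 and 2.39 rppm in FoB WT. It was higher by 0.79 ± 0.26 in knockouts and by 1.30 ± 0.26 in wild types (adjusted p = 0.0160 and 0.000112). The knockout call was lost with quantile normalisation, with DESeq2 and without MZB KO replicate 2, at adjusted p values up to 0.2355. The other, chr7:25112360-25113282, had 22.2, 31.2 and 23.1 rppm in MZB KO against 14.3, 15.0 and 11.4 rppm in FoB KO, and 27.8, 24.7 and 21.1 rppm in MZB WT against 17.2, 16.2 and 13.1 rppm in FoB WT. No FoB library reached an MZB library of its genotype, and the differences were 0.88 ± 0.15 and 0.65 ± 0.15 (adjusted p = 2.18e-05 and 0.000948).

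Pou2af1, with the fewest regions, had few calls: 1 of 10 regions was higher and 2 lower in MZB KO against FoB KO, and 2 were higher and 0 lower in MZB WT against FoB WT, with no region called in both. Of all tested regions, 23.2% were higher and 9.47% lower in knockouts, and 24.2% and 11.4% in wild types. The upstream region chr9:51205723-51205888 had 3.51, 3.19 and 1.55 rppm in MZB WT against 0.548, 0.386 and 1.19 rppm in FoB WT (log2 difference 1.42 ± 0.41, adjusted p = 0.00621), a call that quantile normalisation ended at 0.0658. In MZB KO it had 0.700, 1.58 and 1.18 rppm. In knockouts chr9:51194864-51195088, further upstream, had 1.63, 0.946 and 1.77 rppm in MZB KO against 3.31, 3.5 and 2.54 rppm in FoB KO (log2 difference -0.91 ± 0.34, adjusted p = 0.0383). That call was lost with DESeq2 and on the omission of MZB KO replicate 2 or of FoB KO replicate 1 or 2, at adjusted p values up to 0.158. Both regions lie close to the limit of detection, where 3 reads amounted to between 0.289 and 0.946 rppm depending on the library.

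**Figure D5:**
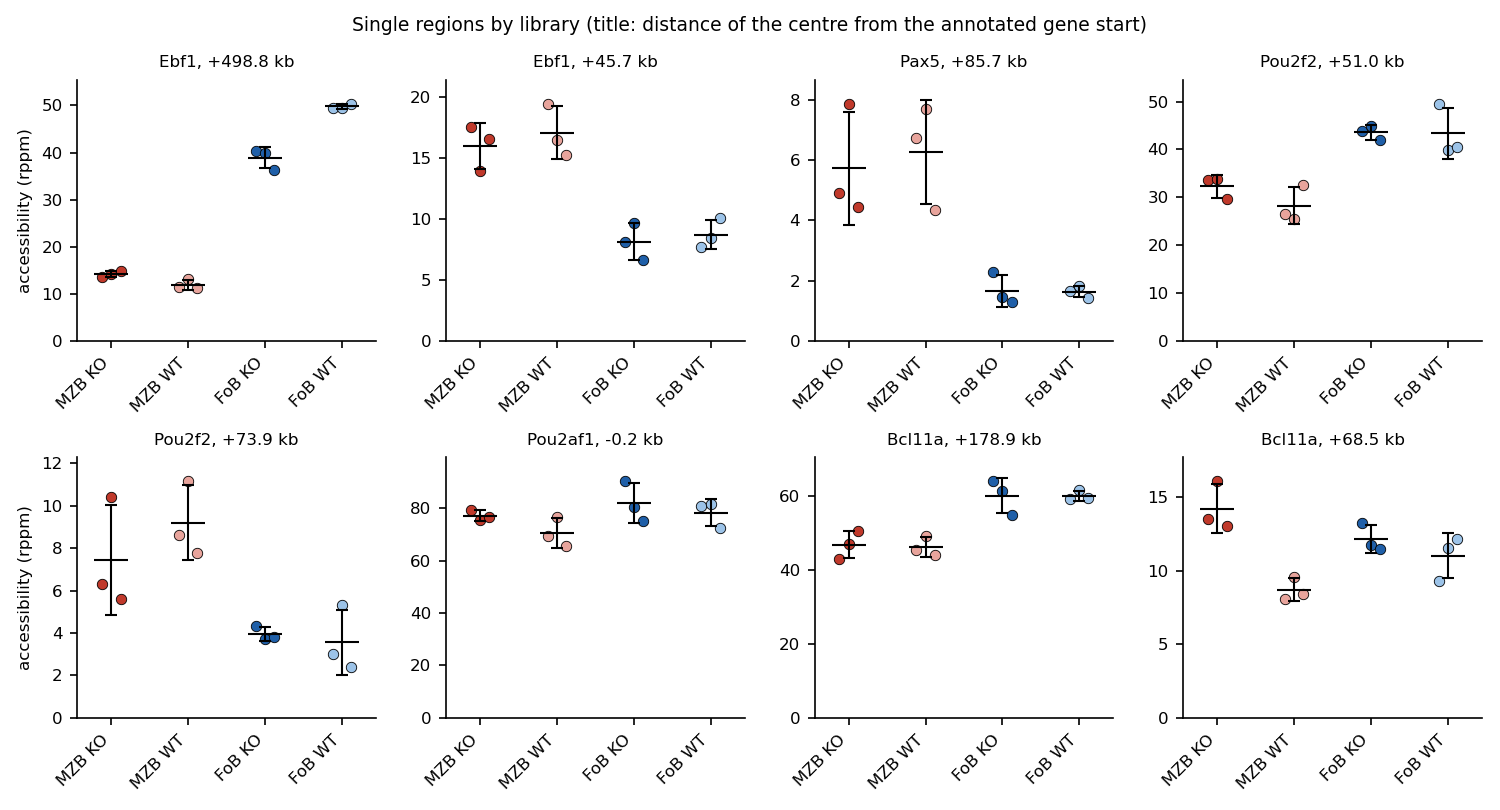
Accessibility (rppm, linear axes from 0) of 8 regions by library in MZB KO, MZB WT, FoB KO and FoB WT. Each title gives the distance of the region's centre along transcription from the annotated gene start, here the 5′ edge of the gene. For Pou2f2 and Bcl11a this edge is not the RefSeq start site used in the text. Points are libraries, bars are means and error bars 1 SD (n = 3 each); the downstream Ebf1 region is near 14 rppm in MZB KO and 12 rppm in MZB WT against 36 to 50 rppm in the FoB libraries, the Pou2af1 start region overlaps among groups, and the last panel is the Bcl11a region called between MZB KO and MZB WT.

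Other factors of the B lineage showed the cell-type contrast in both directions. A list of 20 genes, among them Tcf3, Spi1, Ikzf1, Foxo1 and Bach2, had 712 tested regions. Of these, 119 (16.7%) were higher and 103 (14.5%) lower in MZB KO against FoB KO, beside 23.2% and 9.47% of all tested regions. In MZB WT against FoB WT, 108 (15.2%) were higher and 140 (19.7%) lower, beside 24.2% and 11.4%. In both genotypes the higher share was below and the lower share above that of all tested regions, as at the 5 genes together. Bach2, a repressor that restrains plasma cell formation, held the higher region with the smallest p (chr4:32405960-32406450, within the gene), at 22.2, 30.0 and 31.0 rppm in MZB KO against 6.62, 6.18 and 7.12 rppm in FoB KO, and 27.0, 27.6 and 29.2 rppm in MZB WT against 6.30, 5.69 and 5.49 rppm in FoB WT. The lower one (chr13:82915061-82915878) lies 588139 bp from its nearest protein-coding gene, Mef2c, a MADS-box factor of B cells, and may serve another gene or none. It was at 23.1, 26.5 and 26.3 rppm in MZB KO against 65.8, 57.3 and 54.1 rppm in FoB KO, and 19.4, 23.9 and 27.4 rppm in MZB WT against 53.4, 66.5 and 70.7 rppm in FoB WT. The cell types were fully separated at both.

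Between the genotypes, 10 of the 712 regions (1.40%) were higher in MZB KO than in MZB WT, at Id3, Irf8, Lef1, Runx1 and Sox4, and 2 were lower, at Ets1 and Mef2c, beside 0.502% higher and 0.275% lower of all tested regions. In FoB KO against FoB WT, 1 was higher, at Ets1, and 2 were lower, at Id3 and Mef2c, beside 0.320% and 0.219% of all. At a distance of 190693 bp from Sox4, a factor of early B cell progenitors, chr13:28757325-28758226 had 23.6, 17.7 and 22.2 rppm in MZB KO and 11.3, 11.4 and 12.8 rppm in MZB WT, a log2 difference of 0.80 ± 0.14 (adjusted p = 0.00184). No MZB WT library reached an MZB KO library there. Regions of 5 genes that mark immature and transitional B cells also summed higher in MZB KO, to between 194 and 205 rppm, than in MZB WT, to between 158 and 171 rppm. They summed to between 230 and 248 rppm in FoB KO and between 218 and 239 rppm in FoB WT. Of the 26 tested regions of these 5 genes, 1 (3.85%) was called higher in MZB KO than in MZB WT, at Cd93, and 0 lower. The gate removed CD93+ cells, and the part of immature cells in these sums was not tested.

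Among textbook target genes of Pax5, Ebf1 and the octamer factors, 23 of 25 had tested regions, 335 in all, some of them shared with the list of other factors. In marginal zone cells 4 were higher and 2 lower in MZB KO, and in follicular cells 1 was higher and 3 lower in FoB KO, beside the shares of all regions just given. Between the cell types 62 (18.5%) were higher and 42 (12.5%) lower in MZB KO against FoB KO, beside 23.2% and 9.47% of all tested regions. In MZB WT against FoB WT, 55 (16.4%) were higher and 58 (17.3%) lower, beside 24.2% and 11.4%. Cd55, a complement regulator, had a region 327 bp from the gene (chr1:130465336-130465609). It had 5.36, 4.10 and 4.14 rppm in MZB KO and 10.3, 10.6 and 9.95 rppm in MZB WT. The log2 difference was -1.11 ± 0.22 (adjusted p = 0.00762). This region was also lower in FoB KO than in FoB WT, by -0.98 ± 0.22 (adjusted p = 0.0269). Another Cd55 region, 13124 bp from the gene (chr1:130478133-130478292), was lower in both cell types. Its log2 differences were -2.47 ± 0.39 in marginal zone and -2.38 ± 0.39 in follicular cells (adjusted p = 0.000295 and 0.000516). Its KO libraries, at 0 to 0.591 rppm in MZB and 0.254 to 0.618 rppm in FoB, lay close to the limit of detection. Syk, a kinase of B cell receptor signalling, had the higher region with the smallest p (chr13:52636150-52636796), at 26.8, 30.3 and 29.0 rppm in MZB KO against 2.90, 5.77 and 3.30 rppm in FoB KO, and 25.9, 31.1 and 28.3 rppm in MZB WT against 3.83, 2.99 and 3.58 rppm in FoB WT. Fcer2a, which encodes CD23, a marker of the sort, had the lower one (chr8:3693834-3694522), at 34.1, 31.5 and 28.4 rppm in MZB KO against 66.0, 65.3 and 66.1 rppm in FoB KO, and 22.9, 24.2 and 32.3 rppm in MZB WT against 58.3, 62.7 and 69.2 rppm in FoB WT.

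The genes whose summed accessibility varied most like that of each factor over the 4 groups were ranked among 5868 genes with at least 5 tested regions, by the Euclidean distance between centred log2 group means. For Ebf1 the nearest was Megf9 (distance 0.0160), and Zmym5 (0.0228) was also among the first 3, where the median distance of all genes from Ebf1 was 0.526. For Bcl11a they were Psat1, Akna and Gm38664, at distances of 0.0171 to 0.0198 (median of all genes 0.484). For Pax5 they were Rhobtb2, Sh2b1 and Nrxn2, for Pou2f2 Cldn10, Sh3bp5 and Cpox, and for Pou2af1 Pbld2, Snx30 and Uvrag. These last 3 factors varied little between groups, and the median distance of all genes from them was 0.290 to 0.297.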

How the data were processed

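ATAC-seq libraries were sorted into 4 groups of 3 by the labels. Per the submitters' processing notes, the authors used Bowtie 1.1.1 and MACS2 with mm10; no role, filter or Tn5 shift is given in the sources used here. The deposited values are rppm, a form of RPM in which the reads of a region are scaled so that the listed regions of each library sum to 1000000. All values divided into whole reads within 0.01, so depth per library was recovered and edgeR and DESeq2 were run on those reads as alternatives. Whether the deposited starts count from 0 or 1 is not given, and coordinates are printed as deposited. Genes were assigned from RefSeq GRCm38.p6 (21900 protein-coding genes; exons and introns were not used). All 12 libraries were fitted with limma 3.58.1 in R 4.3.3 (4 group terms, trended variance) on log2(rppm + 0.5), tested two-sided with Benjamini-Hochberg adjustment over 89782 regions after removal of 4379 low ones. Alternatives were other pseudocounts, no filter, quantile normalisation, the compared groups alone, a replicate block, robust shrinkage, edgeR 4.0.16, DESeq2 1.42.0, each library left out, and regions within 100000 bp alone. Pipelines were tested on simulated data. Replicates of a group differed beyond sampling noise. Regions named were those at the start sites, the most accessible, the smallest p in each direction and comparison without overlapping libraries, the smallest p of each knockout comparison where none passed, and all calls of knockout comparisons. The 5 genes, lists and rules were chosen with earlier results of these data known. Log2 differences understate changes of regions with few reads. A few results on single genes are not reported here.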

Additional observations from a re-analysis of the deposited data

How the results depend on the processing

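In MZB KO against MZB WT, the 1 higher region became 0 with a pseudocount of 0.1, with edgeR with or without TMM and with DESeq2, and ranged from 0 to 1 when 1 library was left out. The 0 lower regions became 2 under quantile normalisation, 1 each at Ebf1 and Bcl11a, and ranged from 0 to 1 when 1 library was left out. In FoB KO against FoB WT, edgeR with or without TMM gave 1 lower region in place of 0. In MZB KO against FoB KO, the 14 higher regions became 6 under quantile normalisation, 9 with edgeR and TMM and 7 with DESeq2. Both quantile normalisation and TMM shift all regions by construction, and the cause of the other changes was not tested. With 1 library left out, MZB KO against FoB KO gave 10 to 16 higher and 51 to 65 lower regions, and MZB WT against FoB WT 9 to 16 higher and 58 to 71 lower. Regions within 100000 bp of their gene gave 14 higher and 44 lower in knockouts, and 12 higher and 49 lower in wild types. No named region changed sign while called. Of 38 named calls, quantile normalisation kept 30, DESeq2 33 and edgeR with TMM 36. Deviations from the group means correlated at -0.0934 to 0.134 between libraries of the same number, and at -0.209 to 0.195 between other libraries. Whether the numbers pair libraries by animal or sort is not given by the labels, and these correlations cannot decide it. With the replicate block, MZB KO against FoB KO had 14 higher and 65 lower regions, MZB WT against FoB WT 12 and 70, MZB KO against MZB WT 1 and 0, and the other comparisons 0. Depth limits the weak regions: 3 reads were worth up to 0.946 rppm.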
